A study of Mus musculus with 2 samples.

Results

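Neuron.6 is a small cluster of brainstem neurons defined by the cluster name that the authors assigned to each nucleus, within a series of 18281 nuclei. It holds 120 of the 9259 nuclei from the wild-type (WT) mouse and 5 of the 9022 from the heterozygous (HET) mouse. Both mice were females at postnatal day 41 that had received no treatment, and each gave 1 library of nuclei from frozen, dissected brainstem (10x Chromium 3′ v3.1), so there is 1 animal for each genotype. The HET mouse carried the Dravet syndrome allele Scn1a A1783V over a wild-type allele, made by crossing a floxed-stop knock-in male to a Sox2-cre female on a C57BL/6J background, and the WT mouse was a littermate control. Sox2-cre acts in the early embryo, so the allele was not restricted to the nuclei described here. The markers given with the cluster, Htr5b and Ano2, are genes of the inferior olive, and the results below describe the cluster against the other neuron clusters in the WT library. With 1 mouse for each genotype, and with clusters made from the same counts, no test was made and no comparison of genotypes was made inside the cluster.

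The inferior olive is a folded nucleus of the ventral medulla whose glutamatergic neurons send climbing fibres to the Purkinje cells of the cerebellum. Its neurons are coupled by gap junctions made of connexin 36, encoded by Gjd2, and their membrane potential oscillates below threshold through low-threshold T-type calcium channels and hyperpolarization-activated HCN channels. Ano2 encodes a calcium-activated chloride channel, and C1ql1 encodes a secreted protein by which climbing fibres contact the Purkinje cell receptor Adgrb3.

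The 120 WT nuclei of neuron.6 were deep for this series. They held 5257 to 34411 unique molecular identifiers (UMIs) with a median of 12413, against a median of 7618 in the other 5998 WT neuron nuclei, of which 83.9% belonged to the large cluster neuron.1. All nuclei of neuron.6 were also labelled as neurons by the reference annotation deposited with the counts. At each of the 7 finer and coarser clusterings deposited from the SCT assay (resolutions 0.2 to 1.5), all of them lay in 1 cluster of 126 nuclei, although the number of clusters in all went from 19 to 44. The deposited clustering from the RNA assay put 124 of them in a cluster of 124. Mitochondrial transcripts made up a median of 0.150% of UMIs in the WT nuclei. The median doublet score was 0.285 in WT neuron.6 against 0.166 in the other WT neuron nuclei, and the part of this difference in the results was not tested beyond the values without high-scoring nuclei that are given with the processing choices. Of the 23 cell barcodes that occurred in both libraries, 0 were in neuron.6.

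The inferior olive genes were high in neuron.6. Of the 13 genes on the olive list, 12 had at least 20 UMIs in neuron.6 and the other WT neurons together, all 12 were higher in neuron.6, and 9 of them were at least 4-fold higher. Among all 19471 genes with as many UMIs, 414 were at least 4-fold higher in neuron.6 (2.13%) and 967 were at least 4-fold lower (4.97%). Where at least 20 UMIs were expected in neuron.6 at the rate of both groups together, which leaves 9647 genes, these shares were 1.07% and 4.47%. UMIs in neuron.6 itself count towards that rate. Centring all ratios on the median of genes with at least 200 UMIs (-0.30) changed the split from 414 higher and 967 lower to 558 and 701. The median log2 ratio of the 12 olive genes was 4.12, beside -0.35 over all genes. The list holds the markers given with the cluster and was drawn up with results of these data known, so its counts describe the cluster and do not test its name. Values are given as CPM, the UMIs of a gene per 1000000 UMIs of a group of nuclei, with 95% exact Poisson intervals that cover counting error only and not the variation between mice.

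The 2 given markers stood far apart from the other neurons. Ano2 (chr6:125690419-126040126, GRCm38) was at 567 CPM in neuron.6 (95% interval, 532 to 605) and at 1.25 CPM in the other neurons (0.978 to 1.57), a log2 ratio of 8.83 (8.48 to 9.19). Over the 120 nuclei its lowest, median and highest counts were 0, 6 and 34 UMIs, and 116 nuclei held at least 1. The highest of the other clusters, neuron.9, was at 11.8 CPM, which there is a single UMI. Htr5b (chr1:121509842-121528465), which encodes a serotonin receptor, was at 77.7 CPM (64.9 to 92.3) against 1.27 CPM (0.993 to 1.59), with a log2 ratio of 5.94 (5.51 to 6.37), and it was detected in 62 of the 120 nuclei with at most 8 UMIs. Outside neuron.6, neuron.8 stood at 27.7 CPM of Htr5b, but all 36 of those UMIs came from 1 nucleus. The log2 ratio of Htr5b was 3.55 with each other neuron cluster weighted equally and 6.82 without the nuclei of the upper 5% of doublet scores.

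Of the transcription factors on the list, Foxp2 and Pou4f1 stood far above the other neurons and Etv1 less so. Foxp2 (chr6:14901349-15441977), a forkhead factor, was present in every WT nucleus of neuron.6, with 3 UMIs in the lowest nucleus, 27 at the median and 95 in the highest. Its level was 2259 CPM (2187 to 2332), against 40.4 CPM (38.8 to 42.1) in the other neurons and 72.3 CPM in neuron.3, the next highest neuron cluster. Outside neurons, the fibro cluster was at 649 CPM. Pou4f1, also named Brn3a, a POU-homeodomain factor, was at 149 CPM (131 to 169) against 2.69 CPM (2.28 to 3.15), with a log2 ratio of 5.79, and 94 nuclei held a UMI. Etv1, an ETS factor, was at 43.6 CPM against 7.64 CPM, a log2 ratio of 2.51 (2.14 to 2.87). Neuron.6 was not its highest cluster, because neuron.5 stood at 280 CPM, and the ratio turned to -0.30 when each of the other clusters counted equally.

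The signalling and coupling genes of the list were also higher. Crh, the corticotropin-releasing hormone carried by part of the climbing fibres, was at 100.4 CPM (85.8 to 117) against 3.16 CPM, with a log2 ratio of 4.99. It was absent from 60 of the 120 nuclei and reached 14 UMIs in the highest. C1ql1 was at 120.2 CPM (104 to 138) against 6.25 CPM (log2 ratio 4.27), and Calb1, the calcium buffer calbindin, was at 268 CPM (244 to 294) against 16.9 CPM (3.98). Gjd2 was sparse, with 33 UMIs in 25 nuclei, yet at 19.7 CPM (13.6 to 27.7) against 3.96 CPM (3.46 to 4.51) it was 4.98-fold higher, a log2 ratio of 2.32 (1.74 to 2.85). The transcript A530058N18Rik overlaps Gjd2 on the other strand and had 288 UMIs in neuron.6, and the sources used here do not state whether counting used the strand. Fgl2, the remaining defining marker, had only 5 UMIs in 4 nuclei and was too sparse for a ratio.

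Channel and transmitter genes on the list separated neuron.6 less. Cacna1g, the T-type calcium channel Cav3.1, was at 135 CPM (118 to 154) against 36.6 CPM, a log2 ratio of 1.89 (1.68 to 2.08), which was short of 4-fold, and neuron.2 was at 71.5 CPM. Slc17a6, the vesicular glutamate transporter VGLUT2, was at 118 CPM against 72.3 CPM (log2 ratio 0.70), below the 148 CPM of neuron.2.

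**Figure D1:**
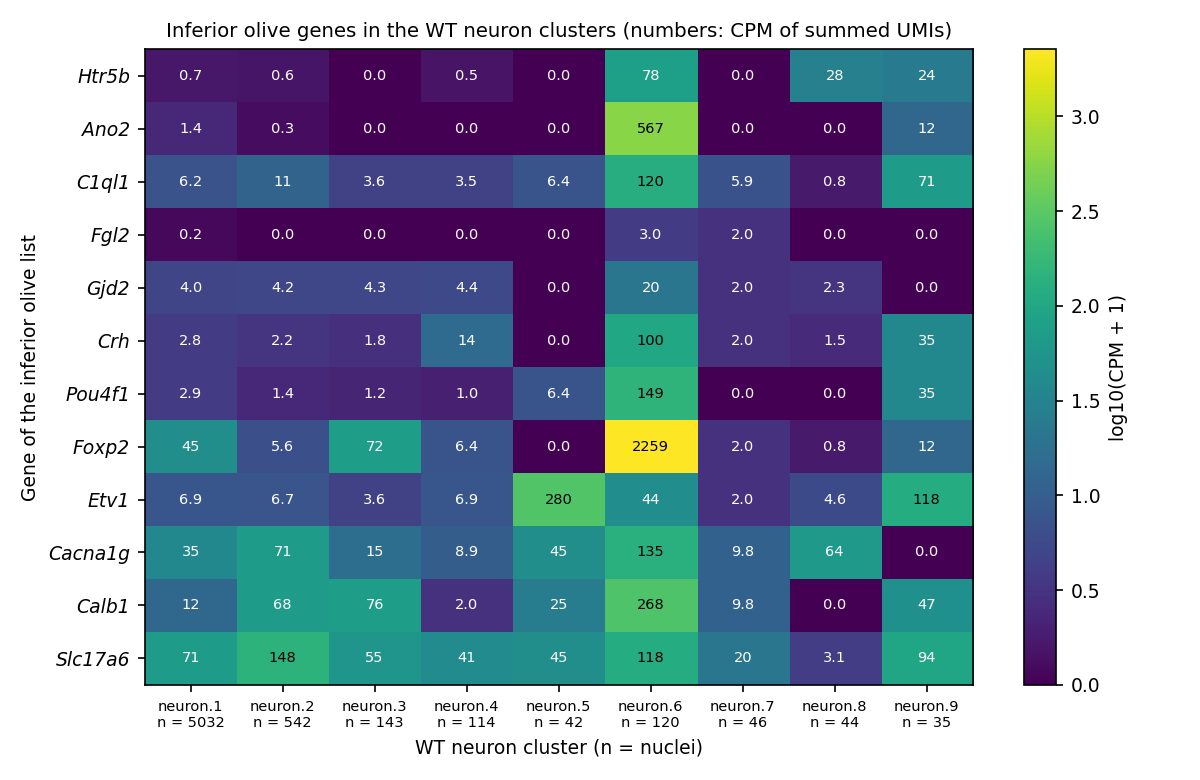
CPM of 12 inferior olive genes (rows) in the 9 WT neuron clusters (columns, with the number of nuclei), printed in each cell and coloured as log10(CPM + 1). The column of neuron.6 is the highest for 10 of these genes, and Etv1 and Slc17a6 are higher in at least 1 other cluster.

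The shares of nuclei with a UMI were compared at 1 depth, by drawing 1000 UMIs from each nucleus, and no nucleus was too shallow for it. Foxp2 was then expected in 85.2% of the neuron.6 nuclei (exact binomial 95% interval, 77.5 to 91.0), in 2.99% of the other neuron nuclei and in 0.853% of the 1760 WT oligodendrocytes on which both labels agree, which stand here for the level that free RNA gives. Ano2 was expected in 40.6%, 0.154% and 0.219% of these groups, Pou4f1 in 13.6%, 0.328% and 0.251%, and Htr5b in 6.93%, 0.0962% and 0.06%. C1ql1 was at 11.4%, 0.902% and 1.58% in the same order, and Crh was at 9.42%, 0.390% and 0.52%. Both were higher in oligodendrocytes than in the other neurons, and whether oligodendrocytes give a background level for them was not tested. Etv1 was at 4.16% in neuron.6 (1.36 to 9.45), at 0.962% in the other neurons and at 7.45% in oligodendrocytes, whose cluster held it at 78.2 CPM, so for this gene oligodendrocytes do not give a background level. Without thinning, at median depths of 12413, 7618 and 2738 UMIs, Ano2 was found in 96.7% of neuron.6 nuclei.

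Single nuclei carried several olive markers at once. Counting how many of the 6 defining markers (Htr5b, Ano2, C1ql1, Fgl2, Gjd2 and Crh) had a UMI, the median WT nucleus of neuron.6 had 3, and the 120 nuclei fell into 2, 8, 29, 43, 29 and 9 nuclei with 0 to 5 markers. At least 4 markers were present in 38 nuclei, 31.7% (23.5 to 40.8). In the other 5998 WT neuron nuclei the highest number was 3, reached by 2 nuclei, and 0 had at least 4, which allows a share of up to 0.05% by the limit of 3 counts and 0.0615% by the exact binomial interval. Deeper nuclei have more chances of a UMI. Among the 1361 other WT neuron nuclei at or over the median depth of neuron.6, 18 had at least 2 markers (1.32%), against 110 of the 120 in neuron.6 (91.7%, 85.2 to 95.9). The 2 nuclei of neuron.6 with none of the 6 markers still belong to a cluster in which every WT nucleus had Foxp2.

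**Figure D2:**
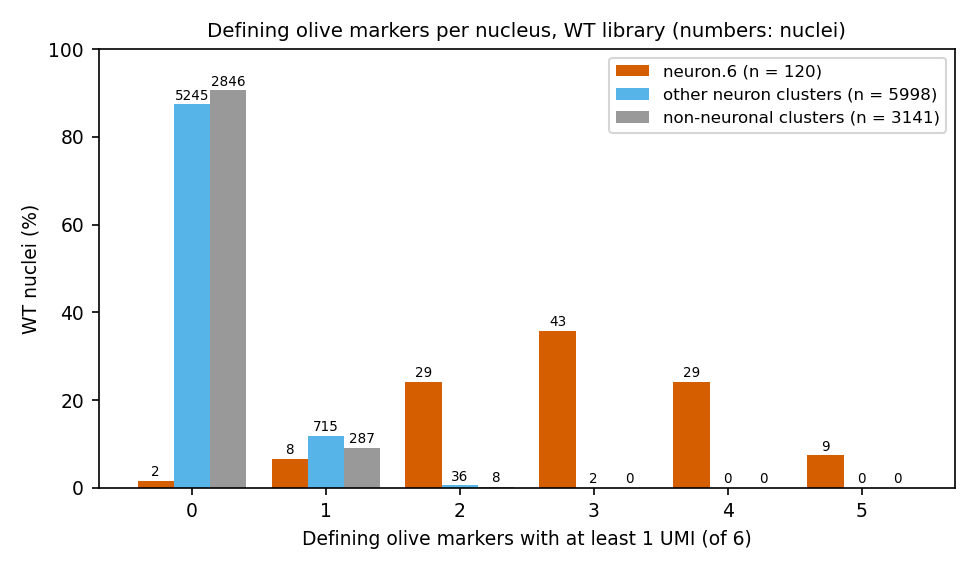
Percentage of WT nuclei (vertical axis) with 0 to 5 of the 6 defining olive markers (horizontal axis) in neuron.6 (120 nuclei), the other neuron clusters (5998) and the non-neuronal clusters (3141), with the number of nuclei above each bar. Neuron.6 peaks at 3 markers with 43 nuclei, and both other groups are mostly at 0.

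By these markers neuron.6 is called inferior-olive-like, a name that the counts above describe and do not test. Markers of other brainstem and cerebellar neurons were mostly near 0 or lower. Of the 5 measured Purkinje cell genes, the only gene at least 4-fold higher was Calb1, which is also on the olive list, while Pcp2 had 1 UMI and Ppp1r17 none. Tph2 and Slc6a4, which mark serotonergic neurons, had 4 and 1 UMIs in neuron.6 and lay at 847 and 753 CPM in neuron.7. Chat and Slc5a7, the genes of cholinergic neurons, had 2 and 1 UMIs and lay at 151 and 241 CPM in neuron.8, whereas Prph, the neurofilament gene peripherin on the same list, was at 22.7 against 8.52 CPM (log2 ratio 1.41, 38 UMIs). The 5 genes of that list summed to 25.1 CPM in neuron.6 and 30.2 CPM in the other neurons, and the catecholaminergic genes Th, Slc6a2 and Slc6a3 had none. Barhl1 of the pontine nuclei and Neurod1 of granule cells were also without a UMI. Of the 4 inhibitory genes, 3 were at least 4-fold lower (75%, beside 4.97% of all genes). They were Gad1 at 5.38 against 35.1 CPM (log2 ratio -2.71), Gad2 at 7.77 against 70.0 CPM (-3.17), and Slc6a5, the glycine transporter GlyT2, at 7.17 against 99.6 CPM (-3.80). The 4 general neuron genes were within 4-fold, from Rbfox3 at 89.7 against 226 CPM (-1.33) to Syt1 at 2973 against 1199 CPM (1.31).

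Markers of non-neuronal cells were at or below the level in the other neurons, with exceptions. The summed level of the 5 oligodendrocyte genes was 322 CPM in neuron.6 and 499.8 CPM in the other neurons, and the 3 microglial genes summed to 123 and 132 CPM. The 3 oligodendrocyte precursor genes summed to 11.4 and 20.1 CPM, although 2 were higher, up to Cspg4 (log2 ratio 0.99, 3 UMIs). Folr1, on the ependymal and choroid plexus list, was also higher (0.75, 2 UMIs). Pecam1, an endothelial adhesion gene, was at least 4-fold higher (33 UMIs, log2 ratio 2.23), while the other endothelial genes Flt1 and Cldn5 had 1 and 6 UMIs. Slc1a2, the glutamate transporter GLT-1 that is best known from astrocytes, was at 600 CPM (log2 ratio 3.92, 3.81 to 4.03) against 39.6 CPM, and 118 of the 120 nuclei held it, with 6.5 UMIs at the median and 34 in the highest. The other 3 astrocyte genes were near 0 in the same nuclei. Aqp4 and Gja1 had 5 UMIs each and Slc1a3 had 2, although in the astrocyte cluster Slc1a2, Aqp4, Slc1a3 and Gja1 were at 2143, 460, 393 and 244 CPM. Of the 5 plasma membrane glutamate transporters, a list also drawn up after the counts had been examined, Slc1a2 was the 1 gene past 4-fold in either direction. That is 20% of the list, beside 2.13% of all genes higher, and the median was -0.88.

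A set of 25 genes was named by a rule of size and specificity, with at least 100 UMIs in neuron.6, at least 2 times the CPM of every other neuron cluster of 30 or more WT nuclei, and the largest log2 ratios. Of 2729 genes with enough UMIs, 113 met the specificity condition. The 25 ranged from Ano2 (8.83) to Calb1 (3.98) and included Htr5b, Foxp2, Pou4f1 and Crh. After Ano2, the largest ratios belonged to the long noncoding RNA D130079A08Rik at 1455 CPM against 9.98 CPM (7.19), to Cdk6, a kinase of the cell cycle, at 212 against 1.96 CPM (6.76), to the noncoding RNA D130009I18Rik at 2326 against 24.0 CPM (6.60), and to Ros1, a receptor tyrosine kinase, at 99.8 against 1.46 CPM (6.10). D130079A08Rik and D130009I18Rik were detected in all 120 nuclei, from 2 to 65 UMIs and from 4 to 169 UMIs, whereas Ros1 was found in 49 nuclei. Cdk6 had a UMI in 93 nuclei. An antisense transcript within Cdk6 had a ratio of 6.69 (36 UMIs), so the strand of part of these UMIs is uncertain.

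Several of the 25 genes act on calcium or on excitability. Jph1, a junctophilin that ties the endoplasmic reticulum to the plasma membrane, was at 283 against 4.55 CPM (log2 ratio 5.96). The antisense gene Gm28376 overlaps it and was at 867 against 15.1 CPM (5.85), so UMIs of this pair cannot be assigned with certainty, and Jph1 was also expected in 17.9% of thinned oligodendrocytes. Stac, which encodes an adaptor of L-type calcium channels, was at 1581 CPM (log2 ratio 5.55, 5.46 to 5.63) against 33.8 CPM and was found in 118 nuclei with a median of 17 UMIs. Kcng1, a silent potassium channel subunit that modifies Kv2 channels, was at 106 against 2.81 CPM (5.24). Cnih3, an auxiliary subunit of AMPA receptors, was at 215 against 6.60 CPM (5.03). Prkch, a protein kinase C isoform, was at 118 against 4.58 CPM (4.69).

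The rest of the 25 were Dnah11, Gm30373, Lmo7, Myo3b, Abtb2, Adgrg2, Dock5, 2600014E21Rik and Fam189a2, at log2 ratios of 5.83 for Dnah11 to 4.05 for Fam189a2. Dnah11 encodes an axonemal dynein chain and stood at 375 against 6.58 CPM with a UMI in 107 nuclei, and Cdca7l, which overlaps it on the other strand, had 36 UMIs. Lmo7 was at 174 against 5.22 CPM (5.06), and Abtb2 was at 402 against 21.2 CPM (4.24). Among the other neuron clusters these 9 genes stood at most at 91.9 CPM, which is Abtb2 in neuron.4. The rule for the 25 genes compares neurons only, and some of them were higher in non-neuronal clusters, with Dnah11 at 642 CPM in epend.1, Dock5 at 235 CPM in fibro and Prkch at 180 CPM in endo.

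**Figure D3:**
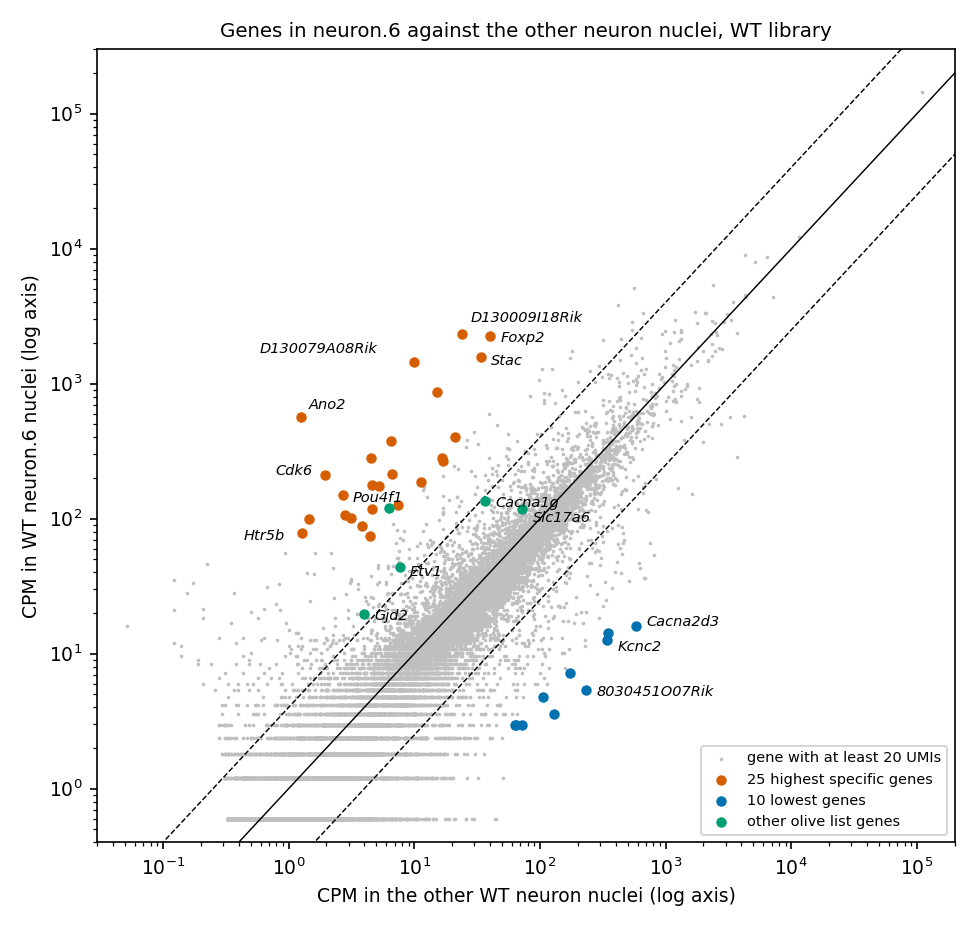
CPM of each gene with at least 20 UMIs and a UMI in both groups, in WT neuron.6 (vertical) and in the other WT neuron nuclei (horizontal), both on log axes, with the line of equality and dashed lines at 4-fold. The 25 highest specific genes (orange) lie from Calb1 to Ano2 above the upper dashed line, the 10 lowest (blue) lie below the lower one, and of the other olive genes (green) C1ql1, Etv1 and Gjd2 are past 4-fold.

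Pou4f1 and both noncoding RNAs lie together on chromosome 14. Pou4f1 is at chr14:104461676-104467999 on the minus strand (GRCm38, GENCODE). D130079A08Rik is at chr14:104288431-104459336 on the same strand and starts 2340 bases downstream of where Pou4f1 ends. D130009I18Rik is at chr14:104612791-104966783 on the plus strand, 144792 bases from Pou4f1. All 3 were more than 50-fold higher in neuron.6. Of the 12 annotated genes within 500000 bases before and 700000 bases after Pou4f1, 6 had enough UMIs. Rnf219, between Pou4f1 and D130009I18Rik, was at 44.2 CPM (34.7 to 55.5) against 14.1 CPM, a log2 ratio of 1.64, and Rbm26, farther out, was at 169 CPM (149 to 189) against 181 CPM. The large ratios in this region were thus those of Pou4f1 and the 2 noncoding RNAs.

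Start regions of members are printed here because these genes set neuron.6 apart most. Each sequence runs from 250 bases before to 50 bases after a RefSeq start (GRCm38.p6), 5′ to 3′ on the strand of the gene, with capitals for matches to any of the motifs searched on both strands. The motifs were the TATA box TATAAA, the CCAAT box (CCAAT itself), the GC box GGGCGG, the E-box CANNTG, the homeodomain core TAATTA, the forkhead motif TGTTTAC, the octamer ATGCAAAT and the cAMP response element TGACGTCA. The windows are Ano2 at chr6:125690169-125690468 (plus strand), Pou4f1 at chr14:104467950-104468249 (minus), D130079A08Rik at chr14:104459287-104459586 (minus) and Gjd2 at chr2:114013570-114013869 (minus), the last shown as the gene of olivary coupling. For Ano2, which has 3 windows in the table, the one whose start is the GENCODE gene start is shown.
Ano2: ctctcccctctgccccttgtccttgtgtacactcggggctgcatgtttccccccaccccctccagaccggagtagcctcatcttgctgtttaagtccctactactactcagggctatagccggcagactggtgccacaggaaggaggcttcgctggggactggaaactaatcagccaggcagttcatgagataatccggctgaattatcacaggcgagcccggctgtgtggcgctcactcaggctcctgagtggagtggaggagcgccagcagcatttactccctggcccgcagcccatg
Pou4f1: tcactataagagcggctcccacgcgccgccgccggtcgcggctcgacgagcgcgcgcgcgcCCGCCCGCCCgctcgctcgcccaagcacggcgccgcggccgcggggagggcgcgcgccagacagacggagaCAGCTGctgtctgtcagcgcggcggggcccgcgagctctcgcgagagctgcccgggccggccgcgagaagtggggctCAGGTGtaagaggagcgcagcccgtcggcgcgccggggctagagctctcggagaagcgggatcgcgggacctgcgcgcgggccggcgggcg
D130079A08Rik: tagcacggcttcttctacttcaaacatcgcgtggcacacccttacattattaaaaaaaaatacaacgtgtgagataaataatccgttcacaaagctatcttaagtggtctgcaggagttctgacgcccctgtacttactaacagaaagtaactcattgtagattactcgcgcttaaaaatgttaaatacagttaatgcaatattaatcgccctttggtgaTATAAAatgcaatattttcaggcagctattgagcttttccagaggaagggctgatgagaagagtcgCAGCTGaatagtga
Gjd2: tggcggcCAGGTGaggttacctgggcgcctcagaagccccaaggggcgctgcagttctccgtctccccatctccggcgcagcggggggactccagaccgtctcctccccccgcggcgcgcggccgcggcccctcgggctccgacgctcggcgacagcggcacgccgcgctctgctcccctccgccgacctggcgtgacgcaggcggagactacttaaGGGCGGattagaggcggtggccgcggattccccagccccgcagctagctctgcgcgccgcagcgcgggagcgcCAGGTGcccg

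The windows differed in composition. The Ano2 window printed held none of the 8 motifs and 10 CpG sites, although another Ano2 window, which begins at base 125690369, held a CCAAT box, a GC box and an E-box, the Pou4f1 window held 57 CpG sites at a GC content of 78.3%, and the Gjd2 window held 41 at 75%, beside medians of 7 and 52.7% over the 32851 start regions in the reference table. Pou4f1 and Gjd2 each had GGGCGG or its complement, which 35.7% of all windows hold, and E-boxes, which 72.3% hold; adjacent matches are run together in the capitals. The window of D130079A08Rik was AT-rich, at 38.7% GC, with a TATAAA (13.6% of all windows) upstream of its start and 1 E-box. Neither the forkhead motif (3.65% of windows) nor the octamer (1.74%) was found in these 4 windows, which says only that these letters are not there. Of the 13 olive genes, 6 had a window in the table, namely Ano2, Fgl2, Gjd2, Pou4f1, Etv1 and Slc17a6.

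The genes lowest in neuron.6 included channels and signalling proteins. A set of 10 genes was named as the lowest among those expected to give at least 100 UMIs in neuron.6 at the rate of the other neurons. Cacna2d3, a calcium channel auxiliary subunit, was at 16.1 CPM against 580 CPM (log2 ratio -5.17, -5.77 to -4.63), and Lrtm1, which lies on the other strand within Cacna2d3, was at 3.59 against 129 CPM (-5.16). Kcnc2, the fast potassium channel Kv3.2, was at 14.3 against 345 CPM (-4.59), and Trpc5, a cation channel, was at 7.17 against 173 CPM (-4.59). The noncoding RNA 8030451O07Rik was lowest of all, at 5.38 against 231 CPM (-5.43). Kctd16, an auxiliary subunit of GABA-B receptors, was at 12.6 against 342 CPM (-4.77), the transcription factor Maf at 4.78 against 105 CPM (-4.46), Htr4 at 2.99 against 64.4 CPM (-4.43), and Ankfn1 and Necab1 at 2.99 CPM each against 72.5 and 62.9 CPM. In no nucleus did any of the 10 exceed 6 UMIs.

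Voltage-gated calcium channels differed by family member, with genes on both sides. Among the 16 calcium channel genes, 1 was at least 4-fold higher (6.25%) and 2 were at least 4-fold lower (12.5%), beside 2.13% and 4.97% of all genes. Their median log2 ratio was 0.07. The higher gene was Cacna1e, the R-type channel Cav2.3, at 1248 CPM (log2 ratio 2.33, 2.26 to 2.39) against 248 CPM, with a UMI in all 120 nuclei. The lower genes were Cacna2d3 and the T-type channel Cacna1h, at a log2 ratio of -2.33 on 4 UMIs. Of the 3 T-type channels, Cacna1g was thus higher in neuron.6, Cacna1h lower, and Cacna1i, at 17.9 against 19.8 CPM, not separated (-0.15, -0.72 to 0.38). Of the HCN channel genes, Hcn4 was at least 4-fold lower (-2.09, 2 UMIs).

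Potassium channels held many of the lower genes. Of the 38 measured voltage-gated potassium channel genes, 5 were at least 4-fold higher and 15 at least 4-fold lower, beside the 2.13% and 4.97% of all genes, and the median log2 ratio was -0.76. Kcng1, Kcnip2, a Kv4 channel partner (59.2 against 9.10 CPM, log2 ratio 2.70), and Kcnh7, an ERG-type channel (2840 against 542 CPM, 2.39), were higher, and Kcnh3 and Kcna3 were past 4-fold with 4 and 5 UMIs only. The lower genes included the Kv3 genes Kcnc1 (13.2 against 123 CPM, -3.23), Kcnc2 and Kcnc4 (2.39 against 12.3 CPM, -2.36), the Kv1 genes Kcna1 (17.3 against 154 CPM, -3.15) and Kcna4, and the Kv4 partners Kcnip1 (-4.19), Kcnip4 (-3.71) and Dpp10 (-2.15). Kcnb2, a Kv2 channel which fell outside the naming rule and was picked after its value was seen, was at 2174 against 638 CPM (1.77). Among the calcium-activated channels, Kcnn3 of the SK family was higher (96.3 against 23.5 CPM, 2.04) and Kcnma1, the BK channel, and its partner Kcnmb2 were lower (47.2 against 617 CPM, -3.71, and 13.2 against 151 CPM, -3.52). Kcnn2, the other SK gene with UMIs, was within 4-fold at 454 against 390 CPM.

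Sodium channels were led by Scn3a. Scn3a, the channel Nav1.3 that is best known from the embryonic brain, was at 1275 CPM (log2 ratio 3.35, 3.28 to 3.42), 10.2-fold above the other neurons, and the highest other cluster, neuron.7, was at 173 CPM. Every WT nucleus of neuron.6 held it, from 2 to 56 UMIs with a median of 16, and after thinning it was expected in 70.1% of them, against 12.9% of the other neurons and 1.61% of oligodendrocytes. It was the 1 gene of 11 past 4-fold (9.09%, beside 2.13% of all genes higher), and the median of the family was -0.51. Scn1a, the gene that carries the allele of the HET mouse, was at 241 CPM in WT neuron.6 (log2 ratio -0.86) against 436 CPM, and of the other WT neuron clusters neuron.7 and neuron.9 were lower, at 166 and 129.7 CPM. The lowest gene was Scn4b, at 3.59 against 13.5 CPM (-1.91).

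**Figure D4:**
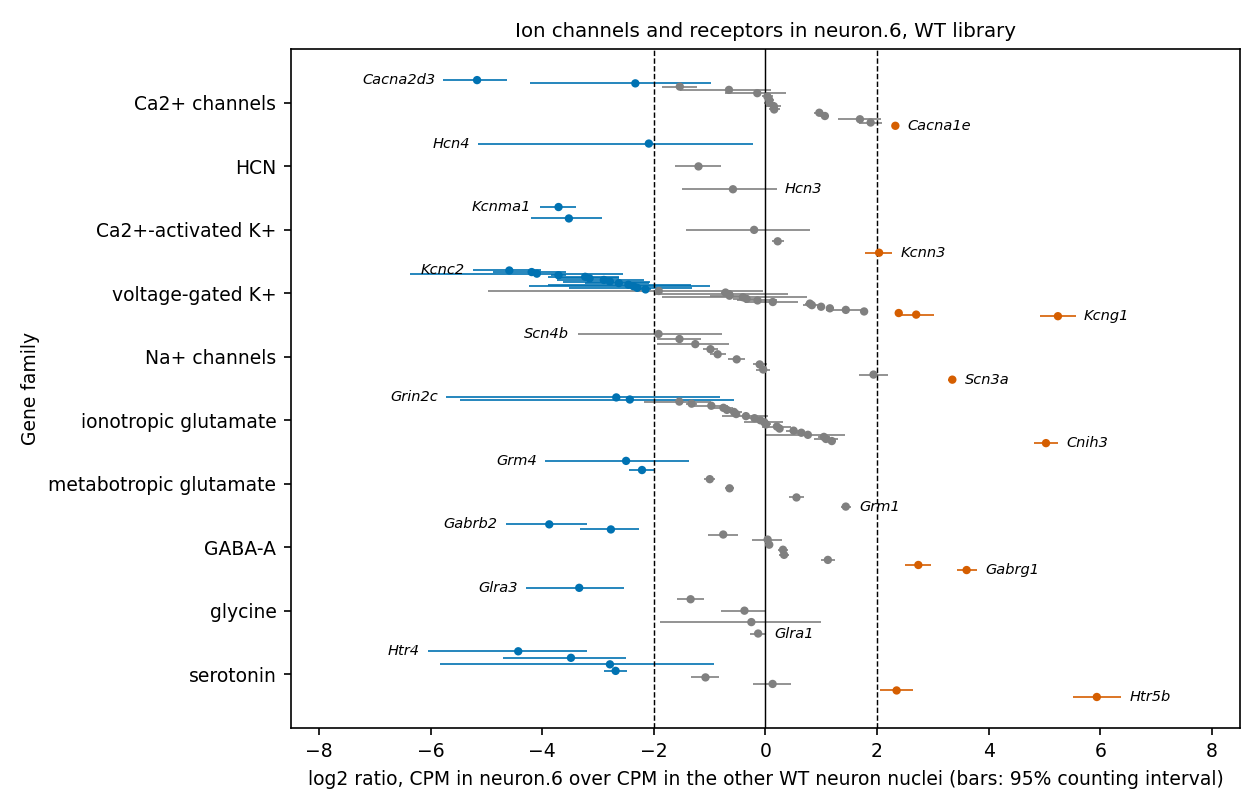
For 10 gene families, anoctamins not included, log2 ratio of CPM in WT neuron.6 over the other WT neuron nuclei (horizontal axis, bars for the 95% counting interval) for the channel and receptor genes reported here with at least 200 UMIs in both groups together and a UMI in neuron.6, 1 row for each family, with the highest and lowest gene of each family named. Orange and blue mark genes at least 4-fold higher and lower (dashed lines); the voltage-gated potassium channels hold the most blue points, and Htr5b, Kcng1 and Cnih3 lie farthest to the right.

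Transmitter systems also differed by single members. Of the vesicular glutamate transporter genes, Slc17a6 had the most UMIs in neuron.6 (197), while Slc17a7 (VGLUT1) had 5 UMIs and Slc17a8 (VGLUT3) had 11. Slc17a6 was higher in neuron.2, and the transmitter of neuron.6 was not tested. Of 23 ionotropic glutamate receptor genes, Cnih3 was the 1 gene at least 4-fold higher, and Grin2c and Grin3b, with 2 UMIs each, were at least 4-fold lower. These are 4.35% and 8.70% of the list, beside 2.13% and 4.97% of all genes, and the median log2 ratio was -0.09. Of the metabotropic receptors, Grm2 was past 4-fold on 14 UMIs (8.37 against 1.51 CPM, 2.47), and Grm8 (90.3 against 418 CPM, -2.21) and Grm4 (-2.50, 6 UMIs) were lower. The GABA-A receptor subunits differed in both directions. Gabrg1 was at 207 against 17.0 CPM (log2 ratio 3.61) and Gabra4 at 113 against 16.9 CPM (2.74), whereas Gabrb2 was at 10.2 against 149 CPM (-3.87) and Gabra3 at 19.1 against 130 CPM (-2.77). The glycine receptor genes ran from Glra1, at 227 against 248 CPM (-0.13), to Glra3, at 7.17 against 72.5 CPM (-3.34).

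Serotonin receptors differed in both directions. Htr5b and Htr2a were the 2 genes at least 4-fold higher among the 13 measured and 5 were lower, beside 2.13% and 4.97% of all genes, and Htr2a stood at 64.6 against 12.7 CPM (2.35, 2.05 to 2.64). Htr2c was at 112 against 718 CPM (-2.68, -2.90 to -2.48), and Htr4, Htr7 (4.78 against 53.5 CPM, -3.48), Htr1b (2 UMIs) and Htr5a (1 UMI) were also at least 4-fold lower. Htr5a and Htr5b thus lay on opposite sides, although Htr5a rests on 1 UMI.

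Regional and lineage transcription factors also separated neuron.6. Of the 21 measured Hox genes, which mark position along the hindbrain and spinal cord, Hoxd3 was at 88.5 against 21.6 CPM (log2 ratio 2.04, 1.78 to 2.28) and Hoxd1 was past 4-fold on 14 UMIs (8.37 against 0.191 CPM, 5.45). Hoxb3 was at 65.2 against 31.8 CPM (1.03). The 6 at least 4-fold lower were Hoxc4 (2 UMIs, -4.08), Hoxb6, Hoxb8, Hoxb5, Hoxb7 and Hoxa4, all on 1 to 5 UMIs, and 6 more had none. The 2 higher and 6 lower genes are 9.52% and 28.6% of the measured Hox genes, beside 2.13% and 4.97% of all genes. Among the 51 measured lineage factors, 6 were at least 4-fold higher (Foxp2, Pou4f1, Foxp4, Pou4f2, Etv1 and Lhx5) and 15 lower, beside 2.13% and 4.97% of all genes. Foxp4 was at 57.4 against 7.55 CPM (2.93) and Lhx5 at 28.1 against 6.23 CPM (2.17), and Pou4f2 had 6 UMIs. The lower factors included Pax2, a factor of inhibitory neurons (0.598 against 43.8 CPM, -6.20, 1 UMI), Nr2f1 (-4.99), Maf, the 3 Ebf genes (-3.74 for Ebf2 to -3.93 for Ebf3) and Zic1 (-3.42). Ebf1, at 34.7 CPM in neuron.6, was at 3877 CPM in neuron.2.

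Genes of axons and contacts differed mostly in the guidance family. None of the 26 cadherins and protocadherins was at least 4-fold higher and 2 were lower (7.69%), near the 2.13% and 4.97% of all genes. They ran from Cdh9 (180 against 83.2 CPM, 1.11) down to Cdh7 (26.9 against 115 CPM, -2.10) and Pcdh8 (-2.43, 2 UMIs). Of the 40 axon guidance genes, Unc5b, a netrin receptor (33.5 against 3.06 CPM, 3.45), Plxnd1 (14 UMIs, 3.39) and Slit3 (837 against 117 CPM, 2.83) were higher, and 8 were lower, which is 7.5% and 20% of the list beside 2.13% and 4.97% of all genes. The lower ones included Slit2 (22.7 against 316 CPM, -3.80), Slit1 (-3.46) and the neuropilins Nrp1 (-2.75) and Nrp2 (-2.63). Slit3 was higher still in neuron.8, at 1462 CPM. Of the C1q-like and cerebellin genes, C1ql1 was higher and C1ql3 lower (4.78 against 27.6 CPM, -2.53), and C1ql2, C1ql4 and Cbln3 had no UMI.

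Peptide and calcium genes held members on both sides. Crh was the 1 of 20 neuropeptide genes at least 4-fold higher, and Pnoc, Grp and Tac1 were lower, at 1, 1 and 9 UMIs. These are 5% and 15% of the list, beside 2.13% and 4.97% of all genes. Of the 25 peptide receptors, 10 had no UMI in neuron.6. Cckar was past 4-fold on 4 UMIs (4% of the list), and 7 were lower (28%), beside the same shares of all genes. Among the lower ones, the opioid receptor Oprm1 was at 12.6 against 87.9 CPM (-2.81) and Oprk1 at 0.598 against 10.4 CPM (-4.13). Among calcium-binding proteins, Calb1 and Hpcal1 (121 against 16.9 CPM, 2.84) were higher and Necab1 was lower. These are 14.3% and 7.14% of the list, beside 2.13% and 4.97% of all genes. A list of 18 genes for calcium release and its coupling to the membrane was written after the counts had been seen. It held 3 higher genes (16.7%) and 6 lower ones (33.3%), beside 2.13% and 4.97% of all genes. The higher ones include Jph1 and Stac, which are among the 25 genes already chosen as high in neuron.6. The lower ones included the ryanodine receptors Ryr2 (43.0 against 631 CPM, -3.87) and Ryr3 (39.5 against 444 CPM, -3.49), and Trpc5. Of the 8 anoctamins, a list drawn up in the same way, Ano2 was the 1 gene at least 4-fold higher (12.5%, beside 2.13% of all genes). Ano1, on 1 UMI, was the 1 gene at least 4-fold lower (-2.91), which is 12.5% of the list beside 4.97% of all genes. Ano3 was at 257 against 181 CPM (0.51).

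Among the 120 WT nuclei, genes differed in how far they varied beyond counting. The Pearson dispersion, the variance of the counts around each nucleus's share of the total divided by the mean (1 for counting error alone), had a median of 1.39 over 1227 genes with at least 200 UMIs, and 23.6% of them exceeded 2. It was 6.03 for Foxp2 and 1.94 for Ano2, with coefficients of variation beyond counting of 0.40 and 0.35. At low counts a small dispersion can go with a larger coefficient, such as 0.53 for Pou4f1 at a dispersion of 1.59. The 10 most dispersed genes were Malat1 (157), Kcnip4 (38.5), Pcdh9 (27.3), Gpc6 (23.9), Kcnh7 (21.5), Gm32647 (19.7), Pdzrn4 (18.4), Lsamp (17.9), Sgcz (17.1) and Cpa6 (16.1). Malat1 is a nuclear noncoding RNA of very high count in every nucleus, from 569 to 3966 UMIs, with a coefficient of variation beyond counting of 0.28.

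Kcnip4, Cpa6, Sgcz and Gpc6 were concentrated in few nuclei. The 10 nuclei with the most UMIs of Kcnip4, the Kv4 partner, held 77.6% of its UMIs, while 55 nuclei had none and the median was 1. For Cpa6, a carboxypeptidase, the 10 highest nuclei held 59.8% and 80 nuclei had none, with 59 UMIs in the highest. The same shares were 50.2% for Sgcz, a sarcoglycan, and 47.6% for Gpc6, a glypican, beside 15.3% of all UMIs in the 10 deepest nuclei. Kcnh7, which is higher in neuron.6 than elsewhere, ran from 0 to 219 UMIs with a median of 25 and 4 nuclei without it. Over the 120 nuclei, log levels of Kcnh7 and Cpa6 correlated at r = 0.45, and those of Pcdh9, a protocadherin, and the noncoding RNA Gm32647 at r = 0.48. These are the largest of the 45 pairs, the nuclei come from 1 mouse and 1 library, and Kcnh7 also went with depth (r = 0.31).

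**Figure D5:**
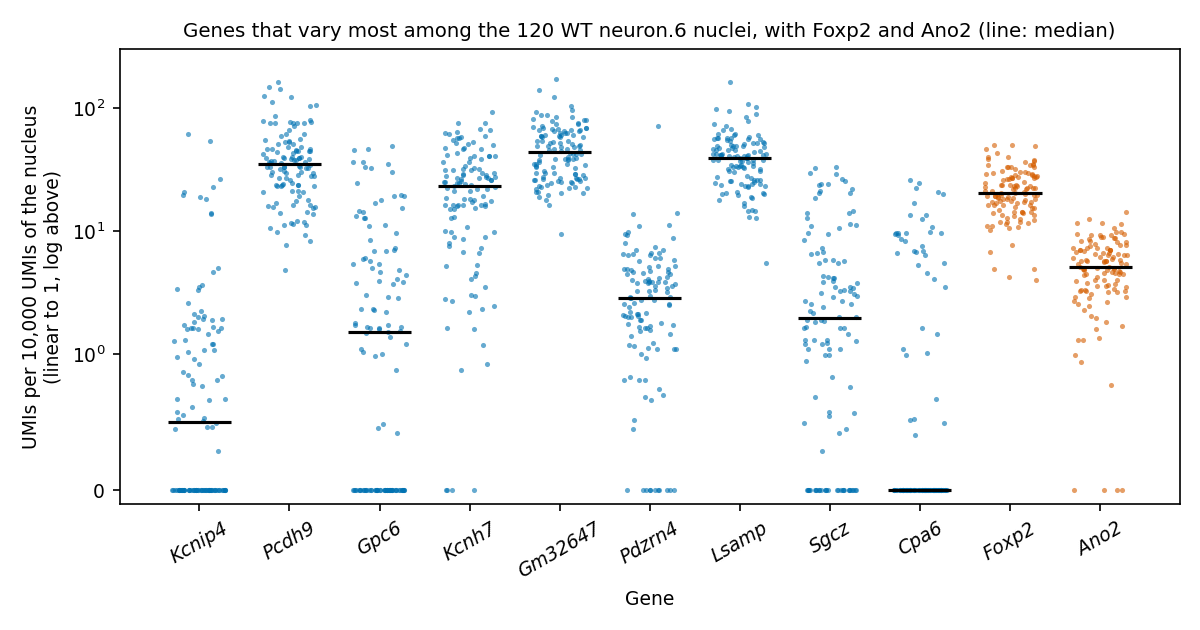
UMIs per 10000 UMIs of a nucleus (vertical axis, linear up to 1 and logarithmic above) for 9 of the 10 most dispersed genes (blue, Malat1 left out for scale) and for Foxp2 and Ano2 (orange); each point is 1 of the 120 WT nuclei and the lines are medians. Kcnip4, Gpc6, Sgcz and Cpa6 have many nuclei at 0 and a few far above the rest, whereas Foxp2 has none at 0 and Ano2 has 4.

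The UMIs of the most specific genes lay mainly in neuron.6 in the WT library. It held 91.4% of all Ano2 UMIs (89.6 to 93.1), 80.4% of D130079A08Rik, 73.2% of D130009I18Rik, 59.9% of Htr5b, 58.0% of Pou4f1 and 57.6% of Foxp2, although neuron.6 was 1.30% of the nuclei (1.08 to 1.55). C1ql1, Gjd2 and Crh were less confined, at 26.5%, 11.6% and 41.7%. Outside neuron.6, 506 WT nuclei had a UMI of C1ql1 and none had more than 5. Foxp2 lay outside neuron.6 in 781 WT nuclei with up to 41 UMIs in 1 nucleus, so it is not a gene of this cluster alone.

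The HET library had 5 nuclei in neuron.6. Its 5 neuron.6 nuclei, 0.0554% of 9022 (0.018 to 0.129), held 5223 to 8748 UMIs and 34677 in all, with doublet scores of 0.286 to 0.360. Foxp2 was at 1615 CPM in these nuclei (1220 to 2097) and at 61.2 CPM in the other HET neuron nuclei, and Ano2, on 4 UMIs, was at 115 CPM (31.4 to 295) and 1.01 CPM. Foxp2 had 17, 4, 8, 17 and 10 UMIs in them, D130009I18Rik had 12, 16, 15, 15 and 21, and D130079A08Rik had 8, 3, 21, 5 and 12. Ano2 was found in 2 of the 5 and Htr5b in 2, and Crh, Gjd2 and Fgl2 in none. Of the 25 highest specific genes, 23 had a UMI in these 5 nuclei, and all 23 had a higher CPM there than in the other 5388 HET neuron nuclei. The clusters were made from the same counts and the 25 genes were chosen as high in neuron.6, so this describes the label and does not test it. A single UMI, as for Adgrg2, is already 28.8 CPM in these 5 nuclei. Outside neuron.6, 1 HET nucleus had 3 of the 6 defining markers and none had more. The 5 HET nuclei of neuron.6 themselves had at most 2, so a count of 3 cannot find nuclei like them. At least 2 markers were present in 32 HET nuclei outside neuron.6 (0.355%) and in 46 such WT nuclei (0.503%). The whole HET library, neuron.6 included, held 77 UMIs of Ano2, 25 of Htr5b and 1028 of D130009I18Rik, whereas the WT library held 1038, 217 and 5318, at totals of 66176778 and 70301390 UMIs. In the same order, Crh had 159 and 403, Pou4f1 114 and 429, and C1ql1 387 and 758. Other olive genes differed less, with Foxp2 at 3949 and 6562, Gjd2 at 209 and 284, Calb1 at 1334 and 1571, and Cacna1g at 2293 and 2410. Fgl2 (45 and 36), Slc17a6 (5113 and 4902) and Etv1 (1552 and 1199) had more UMIs in the HET library. With 1 dissected brainstem for each genotype, mouse, dissection, library and genotype cannot be told apart.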

How the data were processed

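A WT and a HET library of brainstem nuclei, from 1 mouse each, were analysed. The authors deposited counts, the UMIs of each gene in each nucleus, made with Cell Ranger on mm10 and filtered in Seurat 4.1; the aligner's version and the use of introns or strand are not given in the sources used here. The methods state that nuclei under 1000 genes or over 15% mitochondrial transcripts, mitochondrial and hemoglobin genes and some genes called bias-producing were removed; the deposited nuclei have 990 genes or more. Clusters, percent values (the percentage of mitochondrial transcripts, computed by the authors) and the doublet score were taken as deposited; no doublet caller was run here. The WT library held 70301390 UMIs and the HET library 66176778.

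UMIs were summed over the 120 WT nuclei of neuron.6 and over the other 5998 WT neuron nuclei and compared as CPM and as log2 ratios of CPM, for genes with at least 20 UMIs in both groups together. Levels have exact Poisson, shares exact Clopper-Pearson and ratios exact conditional binomial intervals (95%), all for counting error only; UMIs are molecules, but nuclei of 1 mouse are not replicates. A gene without UMIs in neuron.6 was compared at a floor of 3 UMIs, counted as lower only if past 4-fold at that floor, and never as higher. The medians of the lists and of all genes ranked such a gene lowest instead. For the voltage-gated potassium channel genes this gave -0.76, where the floor would give -0.68. Positions and types are from GENCODE release M21 (GRCm38) and start regions from RefSeq (GRCm38.p6). The code ran in Python 3.11.15 with scipy 1.17.1, pandas 2.3.3, matplotlib 3.10.9 and numpy 2.4.6, and was tested on simulated data.

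The cluster, its markers, the gene lists and the alternatives were chosen with earlier results of these data known. Of the 38 lists, those for anoctamins, plasma membrane glutamate transporters and calcium release date from after the counts were seen. Some genes on the lists are not reported here, although the counts and medians of their lists include them. Otherwise the rule for naming was every olive gene, of other lists the members past 4-fold or the highest and lowest (long lists are given by examples), the 25 highest specific and 10 lowest genes defined in the text, and the 10 most dispersed genes with at least 200 UMIs; other genes, such as Scn1a, Hoxb3, Kcnn2 and Kcnb2, were picked after their values were seen.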

Additional observations from a re-analysis of the deposited data

How the results depend on the processing

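Neuron.6 is 120 nuclei of 1 WT mouse, so the values carry counting error and no error between mice, and genes with few UMIs in neuron.6 (1 UMI is 0.598 CPM) are past 4-fold on few molecules. No paired analysis was possible because no result comes from a test. Of 34 named genes followed through 9 alternatives, 30 were at least 4-fold higher as reported and 28 stayed so under every one; Etv1 turned to -0.30 with each other cluster weighted equally, and Gjd2 lay between 1.63 and 2.90. Equal weights also gave 3.16 for C1ql1, 3.75 for Crh and 4.62 for Pou4f1. The 4-fold counts of 414 higher and 967 lower genes became 103 (1.07%) and 431 (4.47%) when 20 UMIs had to be expected in neuron.6. This alternative, chosen after seeing the data, used the rate of both groups together, left 9647 genes and took out genes with few UMIs in the 2 groups. At a minimum of 5 UMIs 732 were higher, and with equal weights 1469 were lower. Centring on the median of genes with at least 200 UMIs (-0.30) changed the split to 558 and 701. The median of the olive list (4.12) was 3.77 with both libraries together, 3.60 as a mean over nuclei, 3.16 with equal weights, 4.43 after centring and 2.93 with 20 expected UMIs; without the 3 WT neuron.6 nuclei of high doublet score it was 4.04. The lowest Gjd2 value came from the 62 nuclei with a doublet score at or under the neuron.6 median, an alternative added after seeing the data. Neuron.6 was 1.96% of WT neuron nuclei. At least 3 and at least 5 of the 6 markers were present in 67.5% and 7.5% of its WT nuclei. All 10 most dispersed genes remained so without the nuclei of high doublet score.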
